A study of Mus musculus with 12 samples.

Results

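Ahrr, the aryl hydrocarbon receptor repressor, and 6 further genes of the aryl hydrocarbon receptor pathway were followed in fibroblasts cultured from mouse embryos that lack either component of telomerase. The 7 genes, Ahr, Ahrr, Arnt, Arnt2, Cyp1a1, Cyp1b1 and Tiparp, were chosen by symbol: a probe set counted as a member if it carried exactly 1 gene symbol and that symbol was on the list. All 7 were found, with 1 such probe set each, among 19938 genes that had a probe set of 1 symbol. The list was drawn up because Ahrr signal differed in opposite directions between knockout and wild type in the 2 lines, so the values of Ahrr are given as a description with no test, and the tests concern the other 6 genes.

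Cells came from male C57BL/6J embryos of stage E12.5-14.5 and were used at passage 5 without treatment. There were 3 cultures of first-generation (G1) mTERT KO fibroblasts, which lack the reverse transcriptase subunit Tert, 3 of mTERT WT, 3 of first-generation mTR KO fibroblasts, which lack the RNA subunit Terc, and 3 of mTR WT. Each WT served as control for its own line, and the 3 pairs of cultures of a line came from littermates. Each culture was measured on 1 Affymetrix Mouse Gene 1.0 ST array. Arrays give no counts, so the number of arrays, 3 per group, limits the precision. Nothing was added to activate the receptor, so the values describe its pathway in standard culture.

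Ahr is a ligand-activated transcription factor of the bHLH-PAS family. It waits in the cytosol with Hsp90 and its co-chaperones, enters the nucleus when a ligand such as dioxin or a tryptophan metabolite binds, pairs with Arnt and binds DNA at sites with the core GCGTG. Its classic targets are the cytochrome P450 genes Cyp1a1 and Cyp1b1, and it also induces its own inhibitors: Ahrr, which competes with Ahr for Arnt and for the binding site, and Tiparp, which attaches ADP-ribose to the receptor. Fibroblasts in culture are known to express Cyp1b1, while Cyp1a1 is low unless a ligand is present.

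The promoters of Ahrr, of both cytochrome genes and of Tiparp are shown because they hold the receptor's core site and because these 4 targets are the readouts of the receptor among the members. Each run covers 250 bases before the annotated start and 50 after it, 5′ to 3′ on the gene's strand, from the RefSeq table of build GRCm38.p6. Capitals mark GCGTG, or CACGC where the site lies on the opposite strand. Ahrr lies at chr13:74292282-74292581 (minus strand), Cyp1a1 at chr9:57697363-57697662 (plus strand), Cyp1b1 at chr17:79715012-79715311 (minus strand) and Tiparp at chr3:65528197-65528496 (plus strand).
Ahrr: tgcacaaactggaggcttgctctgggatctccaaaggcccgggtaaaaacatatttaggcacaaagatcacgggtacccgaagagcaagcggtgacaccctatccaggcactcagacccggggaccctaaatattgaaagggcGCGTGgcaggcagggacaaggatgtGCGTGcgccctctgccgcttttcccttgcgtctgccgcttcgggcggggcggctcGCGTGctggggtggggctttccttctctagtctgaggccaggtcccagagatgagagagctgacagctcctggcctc
Cyp1a1: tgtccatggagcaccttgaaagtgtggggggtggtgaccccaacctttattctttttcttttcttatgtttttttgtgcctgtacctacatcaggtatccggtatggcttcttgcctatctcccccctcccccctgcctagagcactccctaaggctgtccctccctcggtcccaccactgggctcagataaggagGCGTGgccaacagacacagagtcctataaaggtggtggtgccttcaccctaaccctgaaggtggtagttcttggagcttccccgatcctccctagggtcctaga
Cyp1b1: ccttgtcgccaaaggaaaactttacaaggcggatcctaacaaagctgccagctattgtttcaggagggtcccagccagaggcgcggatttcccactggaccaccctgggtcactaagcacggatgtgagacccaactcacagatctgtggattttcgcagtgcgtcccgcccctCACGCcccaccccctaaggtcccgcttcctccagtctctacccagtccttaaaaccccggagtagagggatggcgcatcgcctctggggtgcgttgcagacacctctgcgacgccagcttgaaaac
Tiparp: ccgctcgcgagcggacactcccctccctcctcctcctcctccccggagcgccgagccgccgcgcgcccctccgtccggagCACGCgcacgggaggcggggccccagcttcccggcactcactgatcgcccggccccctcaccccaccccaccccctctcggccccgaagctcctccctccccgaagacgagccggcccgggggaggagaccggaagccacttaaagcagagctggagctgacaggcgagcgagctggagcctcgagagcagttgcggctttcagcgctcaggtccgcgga
The Ahrr window held 3 matches to GCGTG, at 107, 82 and 27 bases before the start, all on the gene's own strand. The Cyp1a1 window held 1, at 54 bases before the start, and those of Cyp1b1 and Tiparp held 1 each on the opposite strand, at 76 and 170 bases before the start. Arnt had 1 match, at 29 bases, and Arnt2 had none, and 6 of the 7 genes had an entry in the table. Among 32851 promoter windows of the same length, 32.4% held at least 1 match on either strand and 3.92% held at least 3. A match of 5 letters is a description of the window and not a measured binding site.

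Signals are on the log2 scale, and a level of background was set on each array from the signals of olfactory receptor genes, which fibroblasts are not known to use, as their 95th percentile. That level lay between 4.93 and 5.09. Ahr, Arnt, Arnt2, Cyp1b1 and Tiparp exceeded it on all 12 arrays, Cyp1a1 on 0 of 12, and Ahrr on 3 of 12, the 3 mTR WT arrays. Levels of different genes are not set against each other here, since probe sets differ in brightness.

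The targeted genes were examined first. Tert, the reverse transcriptase of telomerase, had log2 signals of 4.99, 4.83 and 4.75 in mTERT KO cultures, against 5.72, 5.74 and 5.51 in mTERT WT cultures. The groups did not overlap, and 1 of the 3 mTERT KO arrays exceeded the background level, so the size of the difference is uncertain. The measured log2 difference was -0.79 ± 0.08 (SE), with adjusted p = 0.0352 by limma with Benjamini-Hochberg adjustment. Tert was the 1 probe set called in this comparison, and with the pair number as a replicate block in the 6 mTERT arrays alone its adjusted p was 0.101. Terc, the RNA template, was not above background on any array, so its probe set could not check the mTR labels.

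In the mTERT line, Ahrr had log2 signals of 4.80, 4.81 and 4.78 in mTERT KO cultures, against 4.43, 4.39 and 4.57 in mTERT WT cultures. Every KO culture lay above every WT culture, and within same-numbered pairs KO minus WT was 0.38, 0.42 and 0.20. The means were 4.80 ± 0.02 in mTERT KO and 4.46 ± 0.10 in mTERT WT (SD, n = 3 each), a log2 difference of 0.33 ± 0.10 (SE). All 6 of these values were below the background level of their own arrays, so no fold change is given, and a direction in this line rests on signal that the arrays did not separate from olfactory receptor probe sets. Non-overlap of this kind was found for 5.97% of all probe sets in the mTERT line.

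In the mTR line the order was the opposite. Ahrr had log2 signals of 4.88, 4.58 and 4.58 in mTR KO cultures, against 5.17, 5.26 and 5.46 in mTR WT cultures. The mTR KO values were below background and the mTR WT values were above it, and the 2 groups did not overlap, as was the case for 11.4% of all probe sets. The means were 4.68 ± 0.18 in mTR KO and 5.30 ± 0.15 in mTR WT (SD, n = 3 each), a measured log2 difference of -0.62 ± 0.10 (SE). Taken against the background level, Ahrr was at least 1.24-fold higher in mTR WT than in mTR KO. With the 99th percentile of those receptor genes as background, 1 of the 12 arrays remained above it, an mTR WT array, and no bound above 1 could be given.

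The wild-type groups of the 2 lines also differed in Ahrr. It averaged 4.46 in mTERT WT and 5.30 in mTR WT, a log2 difference of -0.84 ± 0.10 (SE), and mTR WT was at least 1.20-fold higher by the background bound. With the 99th percentile as background, no bound above 1 could be given here either. Between the knockouts the log2 difference, mTERT KO minus mTR KO, was 0.11 ± 0.10 (SE), and the values of the 2 groups overlapped, from 4.78 to 4.81 in mTERT KO and from 4.58 to 4.88 in mTR KO. The 3 mTR WT cultures thus stood above the 9 others: the lowest of them had 5.17, and the highest of the others, an mTR KO culture, 4.88. This held for 1.36% of all probe sets. The difference of the 2 knockout effects, mTERT minus mTR, was 0.95 ± 0.14 (SE) on the log2 scale. The 2 WT groups share the strain named in the labels, and their difference cannot be told apart from a difference between the 2 lines' litters or handling.

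**Figure D1:**
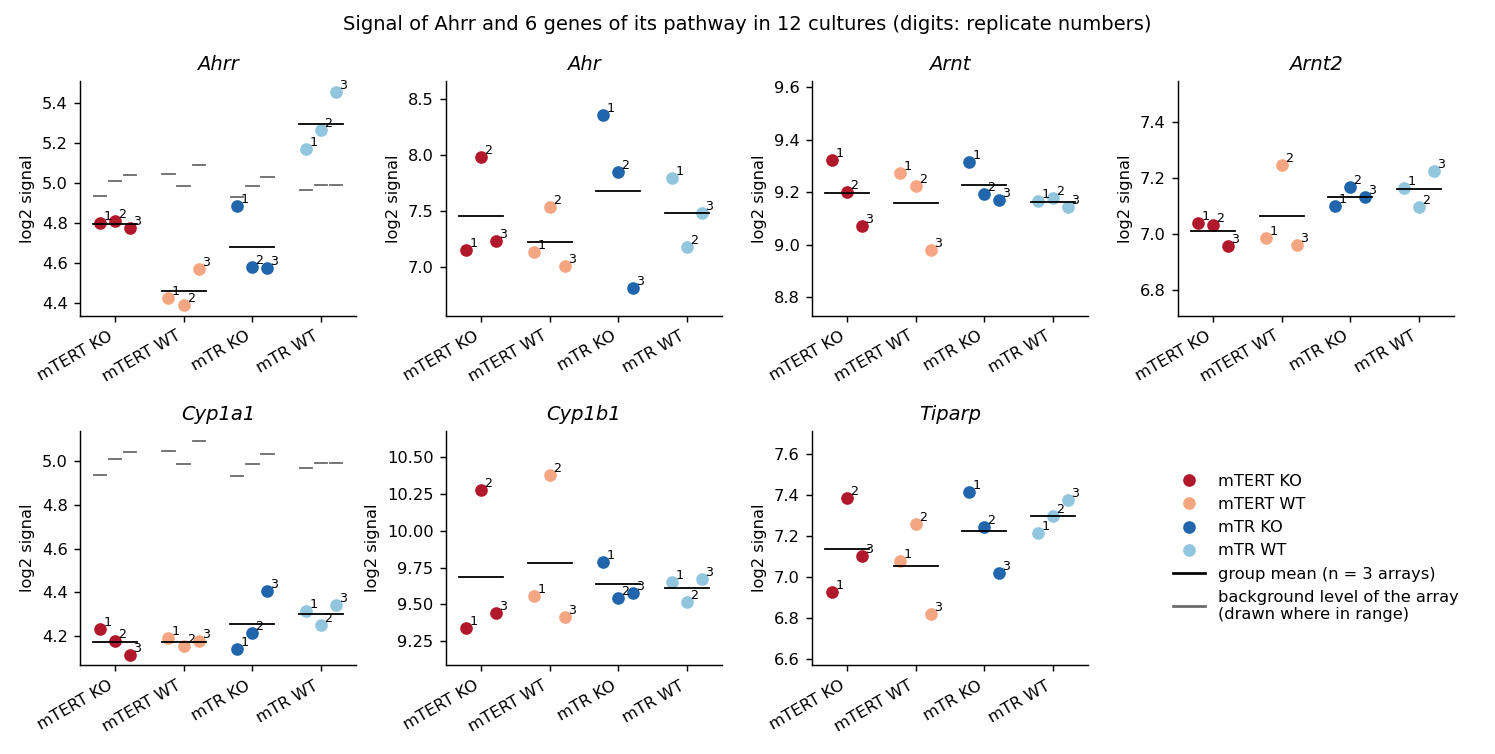
Log2 signal (vertical axis) of the 7 genes in the 12 cultures by group, with replicate numbers as digits, group means as black bars and each array's background level as a grey bar where it falls in range. Ahrr exceeded background in the 3 mTR WT cultures, Cyp1a1 in none, and in the mTERT line the second pair was highest for Ahr, Cyp1b1 and Tiparp.

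The receptor itself varied widely between cultures of the same genotype. Ahr had log2 signals of 7.15, 7.98 and 7.23 in mTERT KO cultures, against 7.13, 7.54 and 7.01 in mTERT WT cultures. In the other line it had 8.36, 7.85 and 6.82 in mTR KO cultures, against 7.80, 7.18 and 7.48 in mTR WT cultures. The groups overlapped in both lines, and the highest and the lowest of all 12 values were both mTR KO cultures. The log2 difference was 0.23 ± 0.35 (SE) in the mTERT line (95% interval -0.54 to 1.00, adjusted p = 1) and 0.19 ± 0.35 in the mTR line (-0.58 to 0.96, adjusted p = 0.937), by limma over all probe sets. Within same-numbered mTERT pairs KO minus WT was 0.02, 0.44 and 0.23. With the pair number as a replicate block in the 6 mTERT arrays alone, the 95% interval for Ahr was 0.01 to 0.44 (adjusted p = 0.888 by limma), and with that block in the fit of 12 arrays it was -0.50 to 0.96 (adjusted p = 1).

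The 2 dimerisation partners were the steadiest of the genes above background. Arnt, the common partner of Ahr and of the hypoxia-inducible factors, had log2 signals of 9.32, 9.20 and 9.07 in mTERT KO cultures, against 9.28, 9.22 and 8.98 in mTERT WT cultures. In the mTR line it had 9.31, 9.19 and 9.17 in mTR KO, against 9.17, 9.18 and 9.14 in mTR WT. Its log2 difference was 0.04 (95% interval -0.16 to 0.23) in the mTERT line and 0.06 (-0.13 to 0.26) in the mTR line. Arnt2, a close relative best known from the nervous system, ranged from 6.96 to 7.04 in mTERT KO and from 6.96 to 7.25 in mTERT WT. In the other line it ranged from 7.10 to 7.17 in mTR KO and from 7.09 to 7.23 in mTR WT. Its log2 differences were -0.05 (-0.23 to 0.12) and -0.03 (-0.20 to 0.15).

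Among the target genes, Cyp1b1, which oxidises steroids and polycyclic hydrocarbons, had log2 signals of 9.34, 10.28 and 9.44 in mTERT KO cultures, against 9.56, 10.38 and 9.42 in mTERT WT cultures. The second culture of each genotype, which share a number, stood apart from the rest. In the mTR line Cyp1b1 had 9.79, 9.54 and 9.58 in mTR KO, against 9.65, 9.52 and 9.67 in mTR WT. Its log2 difference was -0.10 ± 0.26 (SE) in the mTERT line and 0.02 ± 0.26 in the mTR line, with overlapping groups in both. The first of these SEs leaves out the pairing of the mTERT cultures. With the pair number as a replicate block in the mTERT arrays alone, the SE was 0.08 (95% interval -0.28 to 0.08). With that block in the fit of 12 arrays it was 0.09 (-0.29 to 0.09). Tiparp, also called Parp7, had log2 signals of 6.93, 7.38 and 7.10 in mTERT KO, against 7.08, 7.26 and 6.82 in mTERT WT. In the mTR line it had 7.41, 7.24 and 7.02 in mTR KO, against 7.21, 7.30 and 7.38 in mTR WT. The groups overlapped in both lines, and the log2 differences were 0.09 (95% interval -0.23 to 0.40) and -0.07 (-0.38 to 0.24). Cyp1a1, the classic reporter of receptor activation, lay between 4.12 and 4.41 on all 12 arrays, below background throughout, so no level or fold is given for it.

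None of the 6 genes tested passed an adjusted p of 5% in any comparison, against 0.00347% of all 28853 probe sets in mTERT KO minus mTERT WT, 0% in mTR KO minus mTR WT, 0% in the difference of the knockout effects, 0.0173% in mTERT WT minus mTR WT and 0.00347% in mTERT KO minus mTR KO. With so few calls in the background, 0 of 6 says little about these genes. At an unadjusted p of 0.05 the count was also 0 of 6 in each, while the shares of all probe sets were 1.92%, 5.82%, 3.34%, 6.78% and 2.99% in the same order of comparisons. The groups of the 6 genes overlapped in both knockout comparisons. They did not overlap for 1 gene, Cyp1a1, in mTERT WT against mTR WT, where 13.1% of probe sets did not. They did not overlap for 1 gene, Arnt2, in mTERT KO against mTR KO, where 7.25% did not. Across the 6 genes the median log2 difference was 0.02 in the mTERT line and -0.002 in the mTR line, beside 0.001 and 0.0009 over all probe sets. Of the 6, 3 were higher and 3 lower in each line. In mTERT WT minus mTR WT, Ahr had a log2 difference of -0.26 ± 0.35 (SE), Tiparp -0.24 ± 0.14, Arnt2 -0.10 ± 0.08, Arnt -0.004 ± 0.09 and Cyp1b1 0.17 ± 0.26, and each of these 5 intervals holds 0.

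**Figure D2:**
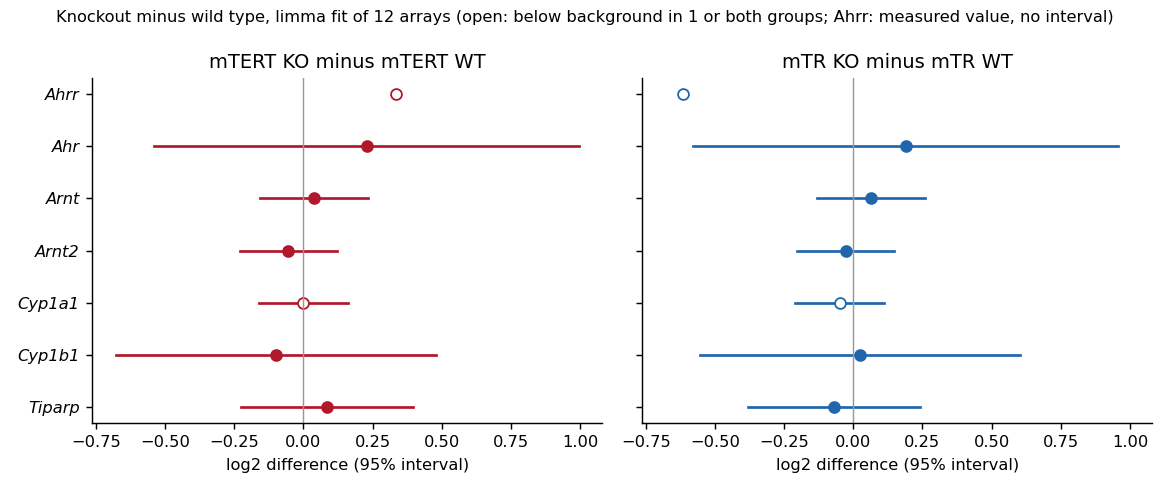
Log2 difference (horizontal axis), knockout minus wild type, of each gene in the mTERT line (left) and the mTR line (right), with 95% intervals from the limma fit of 12 arrays. The intervals of the 6 genes tested hold 0 in both panels. Ahrr, which chose the list, is drawn as a measured value without interval, and open like Cyp1a1 because 1 or both groups were below background.

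In the mTERT line the pair number took a larger share of the variation than genotype for every member but Ahrr. Same-numbered mTERT KO and WT cultures deviated together over the 14427 brightest probe sets, with correlations of 0.674, 0.733 and 0.790. The pair number accounted for 97.3% of the sum of squares of Cyp1b1 over the 6 mTERT arrays, 93.2% of Arnt, 81.1% of Ahr, 72.8% of Tiparp, 58.8% of Arnt2 and 58.7% of Cyp1a1, and genotype for at most 12% of any of these. For Ahrr the pair number accounted for 3.25% and genotype for 89.9%, which follows in part from its choice for that difference. Ahrr and Cyp1a1 were below background on all 6 mTERT arrays, so their shares divide signal that was not separated from background. Neither is among the brightest probe sets. Pair number has more levels than genotype, so it takes a larger share even of noise alone. The median over these brightest probe sets was 69.1% for pair number and 5.90% for genotype. In the mTR line the same numbers did not mark cultures that deviated together, with correlations of -0.156, 0.289 and -0.377. Among differently numbered mTR cultures, KO 1 with WT 3 had 0.372 and KO 3 with WT 1 had 0.319, and the rest were negative. The replicate numbers thus do not tell which mTR cultures were littermates, and the SEs given for the mTR line leave out any pairing.

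Ahr was compared with its targets from culture to culture, and it was closest to Tiparp. Over the 12 arrays Pearson's r between Ahr and Tiparp was 0.760 (Spearman's rank correlation 0.811), and without the 2 cultures farthest from the median of Ahr it was 0.647. Within lines r was 0.921 over the 6 mTERT arrays and 0.685 over the 6 mTR arrays. Between Ahr and Cyp1b1 r was 0.505 (rank correlation 0.601) and 0.366 without the same 2 cultures, with 0.862 in the mTERT line and 0.672 in the mTR line. Between Cyp1b1 and Tiparp it was 0.588 (rank correlation 0.720). Cyp1a1 was below background on all 12 arrays, and its r with Ahr was negative, at -0.329 (rank correlation -0.385). Within lines that r was -0.172 over the mTERT arrays and -0.801 over the mTR arrays. Ahrr was below background on 9 of these 12 arrays, which limits what its correlations can show. Its r was 0.205 with Ahr (rank correlation 0.392), 0.468 with Tiparp (rank correlation 0.545) and -0.166 with Cyp1b1 (rank correlation 0.077). These correlations are descriptions over 12 arrays that share litters, and all 21 pairs of the 7 genes were computed.

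**Figure D3:**
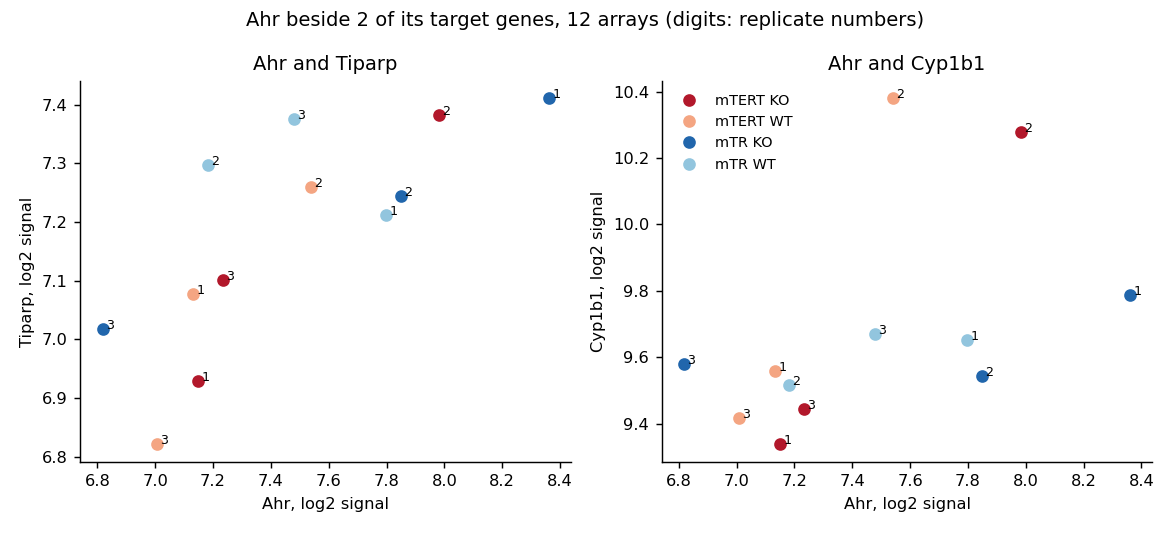
Log2 signal of Tiparp (left) and Cyp1b1 (right) against that of Ahr, 1 point per culture, coloured by group and numbered by replicate. Tiparp is higher where Ahr is higher over the 12 cultures as a whole, though not within mTR WT, while Cyp1b1 is set apart by the second pair of the mTERT line, at 10.28 in the KO and 10.38 in the WT culture.

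Markers of several cell types were read beside the members. The 10 fibroblast markers measured, such as collagen and platelet-derived growth factor receptor genes, were above background on all 12 arrays. Of 6 epithelial markers, Epcam and Krt14 exceeded background on no array and 1 did so on all 12. Krt18 did so on 9, Krt5 on 1 and the remaining marker on some arrays but not all. Of 5 endothelial markers, Pecam1, Cdh5, Kdr and Tek exceeded it on no array and Emcn on 3. The 16 macrophage markers were above background on all 12 arrays. Their mean log2 level ranged from 7.81 to 9.61 in mTERT KO and from 8.08 to 9.72 in mTERT WT, and from 7.89 to 9.89 in mTR KO and from 6.98 to 9.06 in mTR WT. All 16 were higher in mTR KO than in mTR WT (median log2 difference 0.75), and 15 of 16 were lower in mTERT KO than in mTERT WT (median -0.15), with 0 of 16 called in either line. Between the wild types all 16 were higher in mTERT WT than in mTR WT (median 0.83, 0 called), so the mTR WT group, which was highest in Ahrr, was lowest in the mean of these markers. The 3 mTR WT cultures had 6.98, 8.66 and 9.06, and the last 2 lay within the range of each other group. Replicate 1, the lowest in these markers, also had the lowest Ahrr of the mTR WT cultures, at 5.17. Of all probe sets 0.00347% were called in the mTERT line, 0% in the mTR line and 0.0173% between wild types, so 0 calls says little. Ahr is expressed in macrophages too: its r with the mean macrophage level over the 12 arrays was 0.353 (rank correlation 0.406), and that of Ahrr was -0.170 (rank correlation -0.161). The 6 smooth muscle and myofibroblast markers were lower in 6 of 6 in both lines (median log2 difference -0.18 in the mTERT line and -0.36 in the mTR line, 0 called). Their mean level had an r of -0.713 with Ahr and 0.196 with Ahrr, and Arnt had an r of 0.879 with the fibroblast markers. Each of the 7 members was correlated with each of the 5 marker lists, and only some values are named here. Others of similar size were -0.731 for Arnt with the smooth muscle and myofibroblast markers and -0.639 for Cyp1a1 with the macrophage markers. The part of these cells in the values of the members was not tested, and in whole cultures fewer cells of a type and less RNA per cell cannot be told apart.

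The wider pathway was covered with 7 lists of 97 entries, of which 84 were measured, and 62 of those were above background on all 12 arrays. In mTERT KO minus mTERT WT and in mTR KO minus mTR WT alike, 0 of 84 were called, against 0.00347% and 0% of all probe sets. At an unadjusted p of 0.05 there was 1 of 84 (1.19%) in each line, against 1.92% and 5.82% of all probe sets. The median log2 difference of the 84 was -0.007 in the mTERT line and 0.035 in the mTR line, beside 0.001 and 0.0009 over all probe sets.

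Of the cytosolic complex that holds Ahr before ligand binding, 3 of 5 genes were measured. The chaperone Hsp90aa1 had log2 differences of -0.01 in the mTERT line and 0.06 in the mTR line, and its co-chaperone Ptges3, or p23, -0.01 and 0.10. Of 18 further target genes 13 were measured, 7 of them above background on all arrays, with 4 higher and 9 lower in mTERT KO and 9 higher and 4 lower in mTR KO. The log2 differences of these 13 ran from -0.35 to 0.21 in the mTERT line and from -0.18 to 0.66 in the mTR line. The highest in the mTR line was Vav3, with -0.07 ± 0.39 (SE) and 0.66 ± 0.39 in the 2 lines and overlapping groups in both. The quinone reductase Nqo1 had log2 differences of 0.06 ± 0.14 (SE) and -0.16 ± 0.14, and Nfe2l2, the regulator of antioxidant genes, -0.03 and 0.05. The liver cytochrome Cyp1a2 and the aldehyde dehydrogenase Aldh3a1 were not above background on any array.

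Of the bHLH-PAS relatives, which share Arnt or its fold, 17 of 18 were measured. Hif1a, the hypoxia-inducible subunit, had log2 differences of 0.03 in the mTERT line and 0.14 in the mTR line, and the clock gene Arntl 0.03 and 0.16. Epas1, which encodes the second hypoxia-inducible subunit, had -0.38 ± 0.14 (SE) and -0.22 ± 0.14. In the mTERT line it alone of the 84 passed an unadjusted p of 0.05 (adjusted p = 1 by limma), and its groups overlapped. The neural factor Npas3 had -0.38 ± 0.21 and 0.08 ± 0.21. Of 18 hypoxia targets 17 were measured, with 7 higher and 10 lower in mTERT KO and 11 higher and 6 lower in mTR KO. The growth factor Vegfa had log2 differences of 0.04 and 0.04, the glucose transporter Slc2a1 -0.10 and 0.02, the mitochondrial protein Higd1a -0.12 and -0.26, and Ankrd37 -0.21 and -0.07.

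Of the cofactors of Ahr and Ahrr 12 of 14 were measured, all above background on all arrays, with 6 higher and 6 lower in mTERT KO and 2 higher and 10 lower in mTR KO. The ankyrin repeat protein Ankra2, a corepressor partner of Ahrr, had log2 differences of 0.03 in the mTERT line and -0.11 in the mTR line. The deacetylase Hdac4 had 0.11 and -0.05, and Rela, the p65 subunit of NF-kB, 0.08 and -0.16. Of 12 genes of tryptophan metabolism, which makes and removes receptor ligands, 11 were measured and 8 of them, among them Ido1, Tdo2 and Kmo, were not above background on any array. The aminotransferase Kyat3 had -0.006 and 0.21. Of the PARP family apart from Tiparp 11 of 12 were measured. Parp1, the main sensor of DNA breaks, had 0.13 and 0.11. Parp16, an enzyme of the endoplasmic reticulum, had 0.10 ± 0.09 (SE) in the mTERT line and -0.24 ± 0.09 in the mTR line, where its groups did not overlap and where it alone of the 84 passed an unadjusted p of 0.05 (adjusted p = 0.839 by limma).

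Ahrr and Tert lie on the same chromosome, with 11 protein-coding genes of the RefSeq table between them, from Slc6a18 next to Tert to Exoc3 next to Ahrr. Beyond Ahrr the next 5 were Pdcd6, Sdha, Ccdc127, Lrrc14b and Zfp72. All 16 were on the array, 9 of them above background on all 12 arrays and 7 on none. None was called in either line. Of the 11 genes between Tert and Ahrr, 5 were higher and 6 lower in mTERT KO, with log2 differences from -0.12 to 0.12, and 3 were higher and 8 lower in mTR KO, from -0.21 to 0.12. The direct neighbours of Ahrr, Exoc3 of the exocyst and the calcium-binding Pdcd6, had log2 differences of -0.07 ± 0.08 (SE) and 0.009 ± 0.10 in the mTERT line and -0.05 and -0.03 in the mTR line. Sdha, the flavoprotein subunit of succinate dehydrogenase, had -0.27 ± 0.08 in the mTERT line with groups that did not overlap (adjusted p = 1 by limma) and 0.05 in the mTR line. Ccdc127 also did not overlap in the mTERT line, at -0.12 ± 0.07. For 2 of 16 neighbours, then, the mTERT groups did not overlap, against 5.97% of all probe sets.

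**Figure D4:**
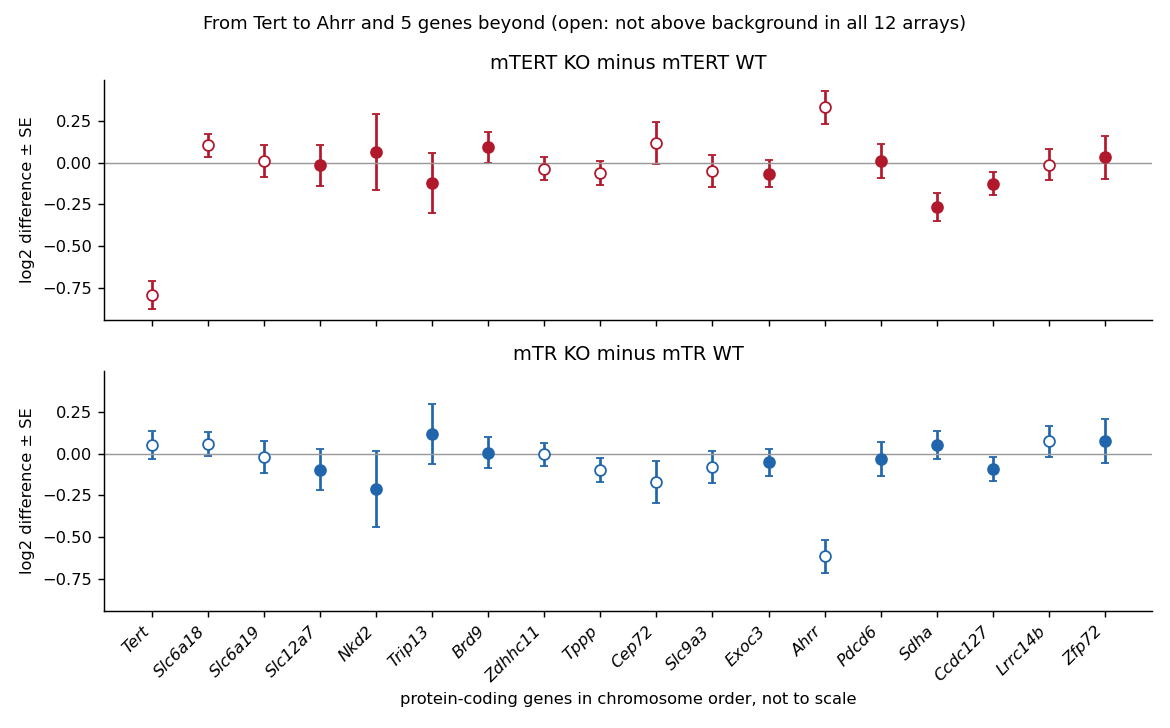
Log2 difference ± SE (vertical axis), knockout minus wild type, of the protein-coding genes from Tert through Ahrr and 5 genes beyond in chromosome order, not to scale, for the mTERT line (top) and the mTR line (bottom). Open points were not above background on all 12 arrays; Tert stands at -0.79 and Ahrr at 0.33 in the mTERT line, with the 11 genes between them from -0.12 to 0.12.

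The genes whose signal followed Ahrr most closely were sought among 11728 probe sets that were among the 14427 brightest and had 1 symbol, by Pearson's r over the 12 arrays. The 8 highest were Hoxa13 (r = 0.923), Smoc2 (0.879), Vkorc1 (0.878), Twsg1 (0.871), Rasal2 (0.870), Mecom (0.865), Col10a1 (0.859) and Osbpl2 (0.852), and the next had 0.842. They were picked for this likeness, so their values are descriptions. Of the 8, 3 were also among the 8 highest by Spearman's rank correlation. Without the 3 mTR WT arrays r lay between 0.450 for Smoc2 and 0.775 for Hoxa13 over 9 arrays, on all of which Ahrr was below background. After each group's mean was removed, r over the 12 arrays was 0.63 for Hoxa13, 0.27 to 0.48 for 6 of the others and -0.04 for Smoc2.

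Hoxa13, a homeobox gene of the distal limb bud and the genital tubercle, averaged 5.49 ± 0.08 in mTERT KO and 5.03 ± 0.25 in mTERT WT, and 5.62 ± 0.16 in mTR KO and 6.24 ± 0.26 in mTR WT (log2, SD, n = 3 each). It was above background on 11 of 12 arrays. The other, mTERT WT replicate 1, had 4.76 against a level of 5.05, so its mTERT WT mean lies near background. Col10a1, the collagen of hypertrophic cartilage, averaged 6.74 ± 0.45 in mTERT KO and 5.98 ± 0.43 in mTERT WT. It averaged 7.32 ± 1.78 in mTR KO and 9.74 ± 0.39 in mTR WT. Its mTR WT arrays were above the 9 other arrays, as they were for each of these genes but Osbpl2. Smoc2, a secreted calcium-binding matrix protein, averaged 7.66 ± 0.18 in mTERT KO and 7.23 ± 0.15 in mTERT WT, and 7.47 ± 0.24 in mTR KO and 8.67 ± 0.37 in mTR WT. Mecom, a zinc finger transcription factor, had log2 differences of 0.32 in the mTERT line and -0.74 in the mTR line. In Rasal2, a Ras GTPase-activating protein, they were 0.25 and -0.55. For Vkorc1, the vitamin K epoxide reductase, Twsg1, which binds bone morphogenetic proteins, and the sterol-binding protein Osbpl2 they ran from 0.05 to 0.13 in the mTERT line and from -0.25 to -0.16 in the mTR line. Opposite signs, and mTR WT arrays above the 9 others, are what the selection by likeness favours.

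**Figure D5:**
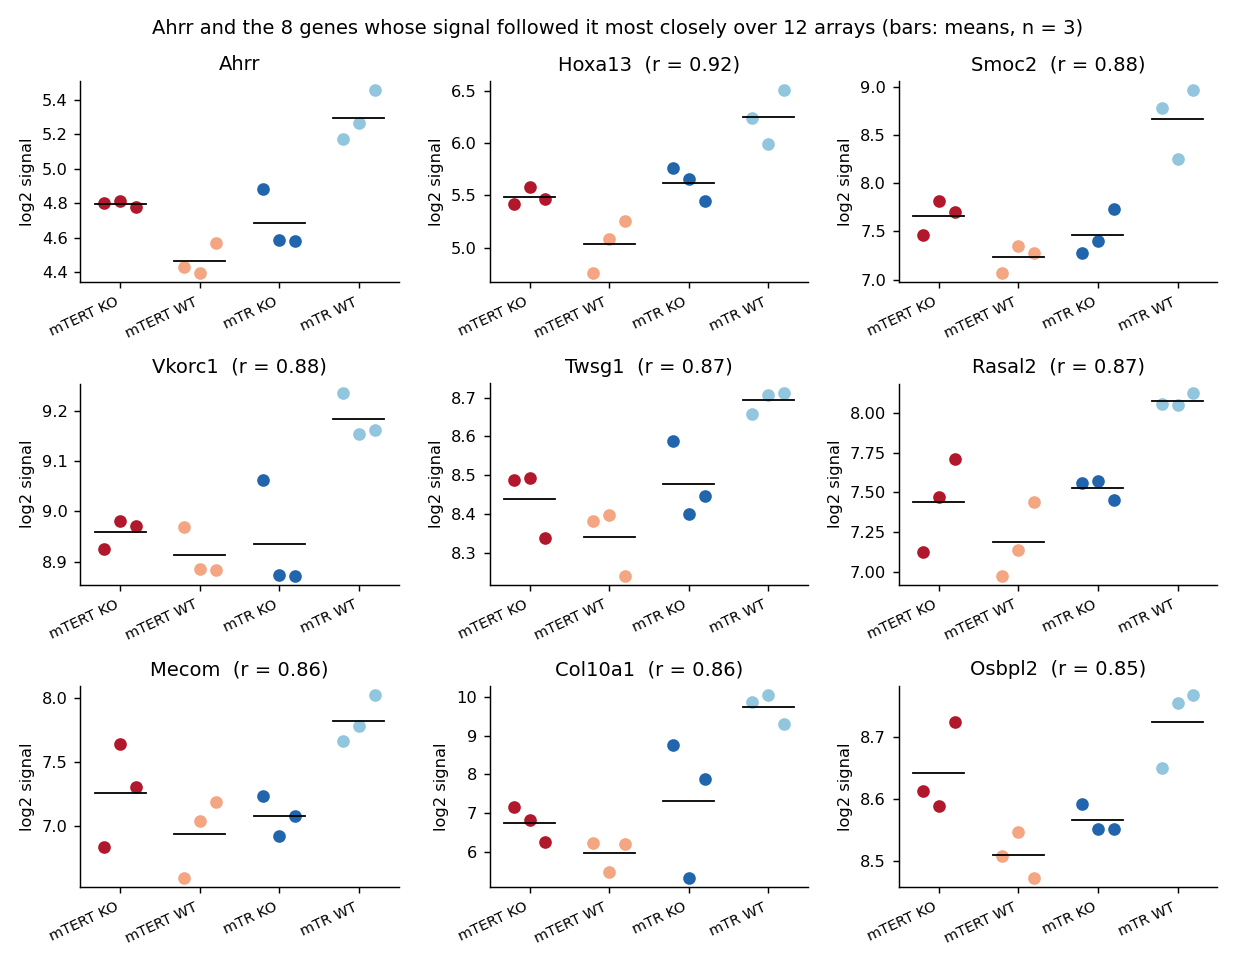
Log2 signal (vertical axis) of Ahrr and of the 8 genes with the highest r with it, by group, 1 point per culture and group means as bars (n = 3). The mTR WT group has the highest mean in every panel.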

How the data were processed

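The deposited table holds log2 signals per probe set, 1 column for each of 12 arrays, as the authors summarised them. GCOS 1.4, Affymetrix Expression Console and PLIER are named, with no role, in the submitters' processing notes. How arrays were normalized and which genome build was used are not given in the sources used here. Quantiles of the columns lay within 0.084 of each other, so the values were used as deposited. The platform annotation gave 1 symbol to 21789 probe sets, several to 1621 and none to 5443, of 28853.

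In R 4.3.3, limma 3.58.1 fitted the 4 group means over the 12 arrays together, with moderated variances. Adjusted p-values are Benjamini-Hochberg values over the 28853 probe sets, dim ones included, and 5% was the threshold. The fit was tested on simulated data. Replicates are separate cultures, so p-values measure the spread between cultures. Same-numbered mTERT cultures correlated in their deviations and were treated as paired in alternative fits, since the design describes littermate sets. A gene below background on every array of a group received at most a bound on its fold change, and its log2 differences are those of the measured signals.

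The members and lists were chosen with earlier results of these data known. By rule, the genes to be named were the members, Tert, Terc, preset list genes and those with the 2 largest statistics per list and line, the 8 genes most like Ahrr, and the neighbours of Ahrr. Some of these are only counted, and marker lists are given by their levels. Alternatives covered normalization, filters, variance, blocks and arrays left out.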

Additional observations from a re-analysis of the deposited data

Results flagged for a closer look

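Ahrr moved in opposite directions in the 2 lines: every mTERT KO culture lay above every mTERT WT culture, and every mTR KO culture lay below every mTR WT culture. The difference of the knockout effects, mTERT minus mTR, was 0.949 on the log2 scale. Since the gene was chosen for this pattern, the difference was not tested. On 9 of the 12 arrays, including all 6 of the mTERT line, its signal was below background.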

How the results depend on the processing

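The measured log2 differences of Ahrr ranged over the alternatives as 0.298 to 0.387 in the mTERT line, -0.717 to -0.536 in the mTR line, 0.869 to 1.05 for the difference of the knockout effects and -0.899 to -0.755 for mTERT WT minus mTR WT. The gene was chosen for its opposite directions, and its groups did not overlap within either line or between the wild types. Leaving out an array could therefore not turn these signs, and blocks leave the estimates as they are. For mTERT KO minus mTR KO, whose groups overlap, the range was 0.0615 to 0.215. It is too dim for the fit of the 14427 brightest probe sets and has no value there. The 6 other genes had 0 calls in 625 alternative values, with a smallest adjusted p of 0.566, and 49 of these values, in 22 of 30 differences, changed sign. Many of the 625 could not change sign. Blocks, filters, variance settings and fits of only the arrays compared leave the estimate as it is. So does leaving out an array of a group outside the comparison. With so few calls in any setting, 0 calls says little about these genes.

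Counts of called probe sets were small and moved with the setting. In mTERT KO minus mTERT WT, where 1 was called, there were 0 with quantile normalization, with only the arrays compared, with the replicate block in both lines and with the replicate block in the mTERT arrays alone, a fit chosen after seeing the data. There was 1 with the replicate block for the mTERT pairs only, which changed no call of a member, and 0 to 2 with 1 array left out. In mTR KO minus mTR WT, with 0 called, leaving out 1 array gave 0 to 3, the 3 without mTR WT replicate 2. In mTERT WT minus mTR WT, with 5 called, there were 0 with quantile normalization, 1 with only the arrays compared, 9 with array weights, 9 with the replicate block on shared numbers and 0 to 11 with 1 array left out, the 11 without mTR WT replicate 2. In mTERT KO minus mTR KO, with 1 called, there were 5 with only the arrays compared and 0 to 8 with 1 array left out, the 8 again without mTR WT replicate 2. In mTERT KO minus mTR KO that array lies outside both groups, so its loss left the estimates as they were and changed only the variances shared over the arrays. Why this array had such an effect was not tested. Between lines only the block on shared numbers was run, since pairs lie within a line.

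Log2 differences that changed sign with 1 array left out are given as their lowest and highest value. In mTERT KO minus mTERT WT the ranges were Ahr -0.035 to 0.39, Arnt -0.0504 to 0.10, Arnt2 -0.10 to 0.037, Cyp1a1 -0.029 to 0.0298, Cyp1b1 -0.40 to 0.20, Tiparp -0.037 to 0.19, Ptges3 -0.045 to 0.0198, Hsp90aa1 -0.029 to 0.018, Nqo1 -0.062 to 0.19, Nfe2l2 -0.095 to 0.0062, Hif1a -0.12 to 0.18, Arntl -0.10 to 0.11, Ankra2 -0.013 to 0.063, Vegfa -0.048 to 0.15, Slc2a1 -0.29 to 0.088, Higd1a -0.24 to 0.034, Kyat3 -0.066 to 0.10, Exoc3 -0.10 to 0.0021 and Pdcd6 -0.068 to 0.10. In mTR KO minus mTR WT these were Ahr -0.15 to 0.62, Arnt2 -0.061 to 0.00399, Cyp1a1 -0.13 to 0.0056, Cyp1b1 -0.051 to 0.072, Tiparp -0.16 to 0.033, Nfe2l2 -0.032 to 0.14, Npas3 -0.11 to 0.30, Hdac4 -0.13 to 0.019, Vegfa -0.039 to 0.17, Slc2a1 -0.10 to 0.12, Ankrd37 -0.16 to 0.037, Exoc3 -0.10 to 0.0021 and Pdcd6 -0.12 to 0.0299. In the difference of the knockout effects these were Ahr -0.39 to 0.38, Arnt -0.11 to 0.039, Arnt2 -0.077 to 0.065, Cyp1a1 -0.0057 to 0.13 and Cyp1b1 -0.42 to 0.17. In mTERT WT minus mTR WT these were Arnt -0.061 to 0.086 and Cyp1b1 -0.13 to 0.36. In mTERT KO minus mTR KO these were Ahr -0.65 to 0.122, Arnt -0.0895 to 0.0351, Cyp1b1 -0.247 to 0.223 and Tiparp -0.209 to 0.018. With quantile normalization the value was -0.00482 for Ahr (the difference of the knockout effects), 0.025 for Arnt (mTERT WT minus mTR WT) and 0.00730 for Cyp1a1 (mTERT KO minus mTERT WT). With array weights the value was 0.03 for Arnt (mTERT WT minus mTR WT), 0.00299 for Cyp1a1 (mTERT KO minus mTERT WT), -0.0408 for Cyp1b1 (mTR KO minus mTR WT), 0.017 for Kyat3 (mTERT KO minus mTERT WT), -0.016 for Pdcd6 (mTERT KO minus mTERT WT) and 0.052 for Pdcd6 (mTR KO minus mTR WT). With median centring the value was 0.000277 for Cyp1a1 (mTERT KO minus mTERT WT). Tert kept its sign, from -0.869 to -0.742 with 1 array left out, but its adjusted p was above 5% in 14 of its 23 alternatives, up to 1 with only the arrays compared. Ahrr was above the 99th percentile background on 1 array, against 3 at the 95th.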
